A study of Nannochloropsis oceanica strain IMET1 with 6 samples.

Results

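The 100 genes with the most abundant transcripts in wild-type Nannochloropsis oceanica strain IMET1, a single-celled marine alga known for storing oil, were followed in the wild type and in the mutant HLM23. They were chosen from 9552 genes by their mean FPKM over the 3 wild-type (WT) libraries. FPKM is the number of sequenced fragments scaled to the counted gene length and to the library total, and it allows levels to be compared between genes. The WT values thus chose the members, and the level and read share in the WT are descriptions. The 3 HLM23 libraries took no part in the choice. Because genes were picked for high WT values, a chance excess in the WT libraries by itself favours lower values in HLM23.

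In HLM23 an insertion interrupts NO06G03670 (genotype NO06G03670-), and the WT control is IMET1 itself. HLM23 is a single insertional strain, so other changes that it may carry cannot be told apart from the insertion. Both strains were grown in 25 ml of artificial sea water from an optical density of 0.1 at 750 nm, at 25 °C with air enriched to 0.2% CO2, with 16 h of light a day at 600 μmol m-2 s-1. Cells were collected after 3 days, 1 h before dark, so the values describe illuminated, growing cultures. Messenger RNA was sequenced in 3 libraries per strain. The labels do not say whether these came from separate cultures, so the p-values speak only to library-to-library spread, which may be technical.

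In photosynthetic cells in the light, the nuclear genes for the antenna proteins that bind chlorophyll, for ribosomal proteins and for abundant housekeeping enzymes are known to be among the most strongly transcribed. Many of these proteins are small, and their messages are often made in bulk. Such background cannot be attached to single genes here, because the deposited table lists IDs and positions with no description, and none of its 9552 IDs matched the 160 organelle genes of the reference table used. Functions are therefore not assigned, IDs are given for 2 members that rose and 2 that fell, and other members are located by chromosome and position as deposited. The sources used here do not name the build of these coordinates.

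The libraries held between 15331673 and 18711316 gene reads, recovered from the deposited values, with the highest total in HLM23 replicate 3. NO06G03670 had normalised read counts of 1073, 982 and 777 in HLM23, against 2164, 1664 and 1682 in the WT, so its HLM23 mean was 51.4% of the WT mean (limma adjusted p = 0.0026), and every HLM23 library lay below every WT library. At a mean WT FPKM of 12.9 it ranked 5728 and is no member.

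Mean WT FPKM ran from 960 to 12205 over the 100 members, with a median of 1821, against a median of 18.4 over all genes. The choice has no natural gap at its lower end. The last 2 members inside stood at 964 ± 40.2 and 960 ± 129, and the first 2 genes outside at 954 ± 51.1 and 951 ± 6.69 (SD, n = 3). Across the 100 genes, FPKM ranked alike in all libraries, with Spearman correlations of 0.904 to 0.981 between libraries of the same strain and 0.831 to 0.932 between strains. These points share their libraries and gene lengths, and genes are not independent replicates.

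These 100 genes, 1.05% of the genes listed, took a large part of all gene reads in either strain. Their share of normalised reads was 30.5%, 29.7% and 34.9% in HLM23 replicates 1, 2 and 3 and 28.2%, 29.6% and 32.0% in the WT replicates. The strains overlapped, with a mean of 31.7% ± 2.80 for HLM23 against 29.9% ± 1.94 for the WT (SD, n = 3), and in each strain replicate 3 held the largest share. The choice by WT level bears on the WT share, so no test is given. Summed over FPKM, which removes the weight of long genes, the members reached 41.0% ± 2.42 for HLM23 against 39.2% ± 1.86 for the WT.

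**Figure D1:**
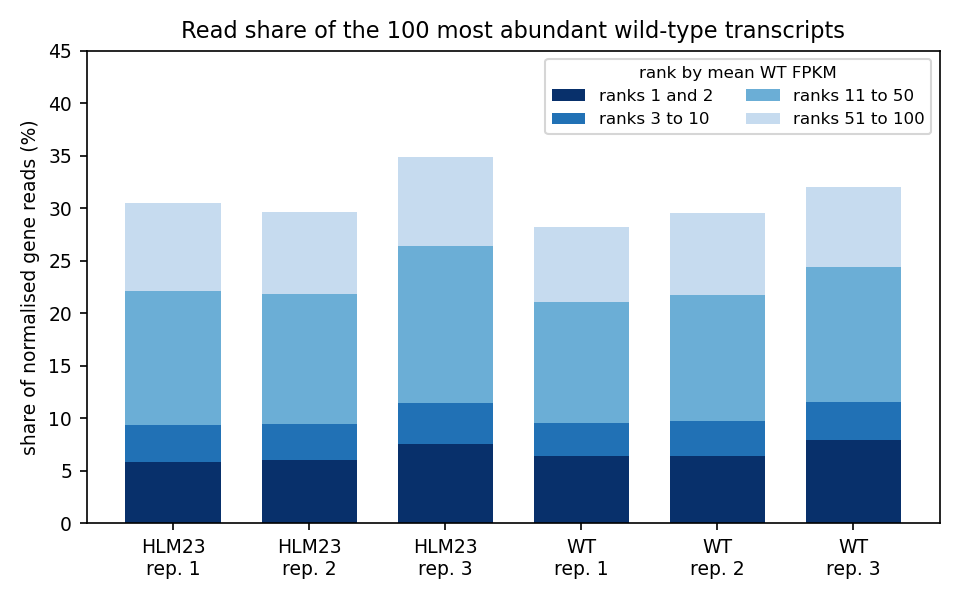
Share of normalised gene reads, in percent, taken by the 100 members in each of the 6 libraries, stacked by rank of mean WT FPKM; each bar is 1 library. Replicate 3 gives the tallest bar in either strain, 34.9% in HLM23 and 32.0% in the WT.

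Within the 100, reads were concentrated in a few genes. The first 2 genes took 6.47% ± 0.912 of all HLM23 reads, against 6.89% ± 0.918 of WT reads, and the first 10 took 10.1% ± 1.19 and 10.3% ± 1.11. The 40 genes at ranks 11 to 50 added 13.4% ± 1.39 and 12.2% ± 0.664, and the 50 genes at ranks 51 to 100 added 8.20% ± 0.350 and 7.48% ± 0.367 (SD, n = 3). Only for this last group did the libraries of the strains not overlap, with shares of 8.36%, 7.80% and 8.44% in HLM23 and 7.07%, 7.79% and 7.56% in the WT, where the lowest HLM23 and the highest WT value almost touch. When the genes of each library were ordered by their own reads, 50% of the reads came from 303, 359 and 223 genes in HLM23 and from 447, 397 and 347 in the WT. HLM23 replicate 2 and WT replicate 3 overlapped in this measure.

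The most abundant transcript by FPKM and by reads came from a gene of 3731 counted bases on chromosome 25, minus strand (239102 to 243813). It had 529050, 528030 and 773387 in HLM23 and 641397, 610710 and 917255 normalised reads in the WT, which is 3.54% ± 0.518 and 4.55% ± 0.882 of all reads (SD, n = 3). Replicate 3 was the highest in each strain, the strains overlapped, and the difference did not pass the threshold (fitted at a log2 fold change of -0.24 with an SE of 0.32, limma adjusted p = 0.60). The span of this gene shares 1959 bases with a gene on the other strand (241855 to 247479), whose mean WT read count was 0.154% of its own. It also shares 540 bases with another gene on the other strand (238235 to 239641), for which this value was 0.0363%. Since strand handling in the counting is not stated, it is not known whether reads in such overlaps were assigned by strand.

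The gene at rank 2 lay on the minus strand of chromosome 9 (192213 to 194901) and overlapped another member, the plus-strand gene at rank 11 (193773 to 196252), by 1129 bases. These are shared bases of the spans, introns included, and the shared counted bases were not measured. The values of both genes are uncertain, as it is not known whether their reads were told apart in the shared stretch. The first had a normalised read count of 445573, 433466 and 632466 in HLM23 and 337843, 376495 and 393015 in the WT. The second had 196389, 199770 and 337820 in HLM23 and 173703, 177300 and 239797 in the WT. All 3 HLM23 libraries lay above all 3 WT libraries for the first, while the strains overlapped for the second. Neither passed the threshold, at log2 fold changes of 0.43 ± 0.28 SE (limma adjusted p = 0.28) and 0.28 (limma adjusted p = 0.48).

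The other 8 genes of the first 10 were short, with counted lengths of 330 to 804 bases. By WT reads not divided by length they ranked between 5 and 42, so division by a short length raised the place of most of them. Rank 3 was a gene of 660 bases on chromosome 16 (453651 to 454960) with a WT FPKM of 9140 ± 676 and an HLM23 FPKM of 10735 ± 497. Rank 4 was a gene of 351 bases on chromosome 6 (1213318 to 1213909) at 7969 ± 651 and 9232 ± 1342, and rank 7 a gene of 672 bases on chromosome 3 (1043487 to 1044158) at 6834 ± 640 and 8556 ± 795. Rank 9, on chromosome 5 (448680 to 449557), had a WT FPKM of 6330 ± 382 and an HLM23 FPKM of 7512 ± 1127 (SD, n = 3). Rank 5 on chromosome 22 (425789 to 426325), rank 6 on chromosome 11 (321644 to 321973), rank 8 on chromosome 8 (975176 to 975916) and rank 10 on chromosome 12 (743865 to 745302) had fitted log2 fold changes between -0.10 and 0.10. None of the first 10 genes passed the threshold in limma, with adjusted p from 0.14 to 0.92. The gene at rank 7 has an adjusted p of 0.044 in the authors' deposited table.

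**Figure D2:**
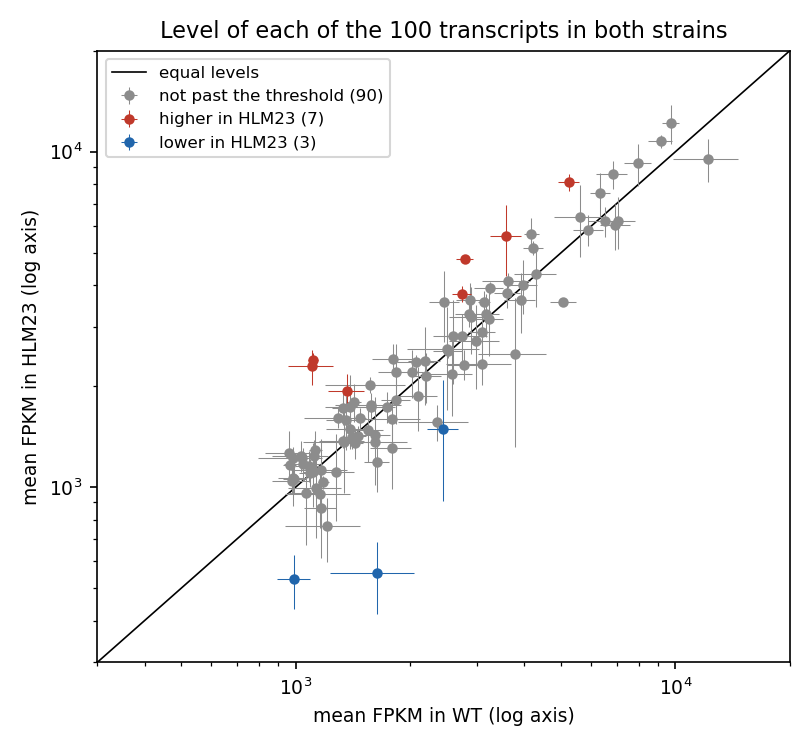
Mean FPKM of each of the 100 members in HLM23 against the mean in the WT, on log axes; bars are SDs over 3 libraries, the line marks equal levels, and colour marks the limma call. Most points lie near the line; 7 genes stand above it in red and 3 below it in blue as past the threshold.

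The gene models of the members were short. Their median counted length was 784.5 bases (from 210 to 3731), against 1907.5 over all genes, and 59 of the 100 were under 1000 bases, against 18.9% of all genes. Of the next 100 genes by rank 53 were under 1000 bases, and of the 800 after those 39.0%. Length divides FPKM and is so part of the choice: the 100 genes with the highest WT read count not divided by length shared 67 genes with the members and had a median length of 1526 bases. Counted lengths were a multiple of 3 in 69 members and in 57.0% of all genes. Among members under 1000 bases this held for 55 of 59 (93.2%), and among all genes of that size for 84.6%. Among the 41 longer members it held for 14 (34.1%), against 50.6% of all genes of that size. Whether the models hold untranslated ends, whose reads would otherwise go uncounted, was not tested.

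Most members contained introns. In 87 the span in the genome exceeded the counted length, leaving a median of 485 bases of intron, and in 13 the span equalled the counted length, against 28.5% of all genes. Among the first 10, however, 4 had no such stretch. In 24 members the intron sequence was longer than the counted length, against 6.83% of all genes. One of the 24 members is a gene of 492 counted bases with 1535 bases of intron on chromosome 28 (76556 to 78582). The total intron length of genes that have any was similar, at a median of 401 bases over all genes. In the fit, the 13 members without introns had a median log2 fold change of 0.03 with 1 called higher and 1 lower, against 27.1% called among the tested genes without introns. The 87 others had a median of 0.20 with 6 called higher and 2 lower, against 29.6% called among the tested genes with introns.

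**Figure D3:**
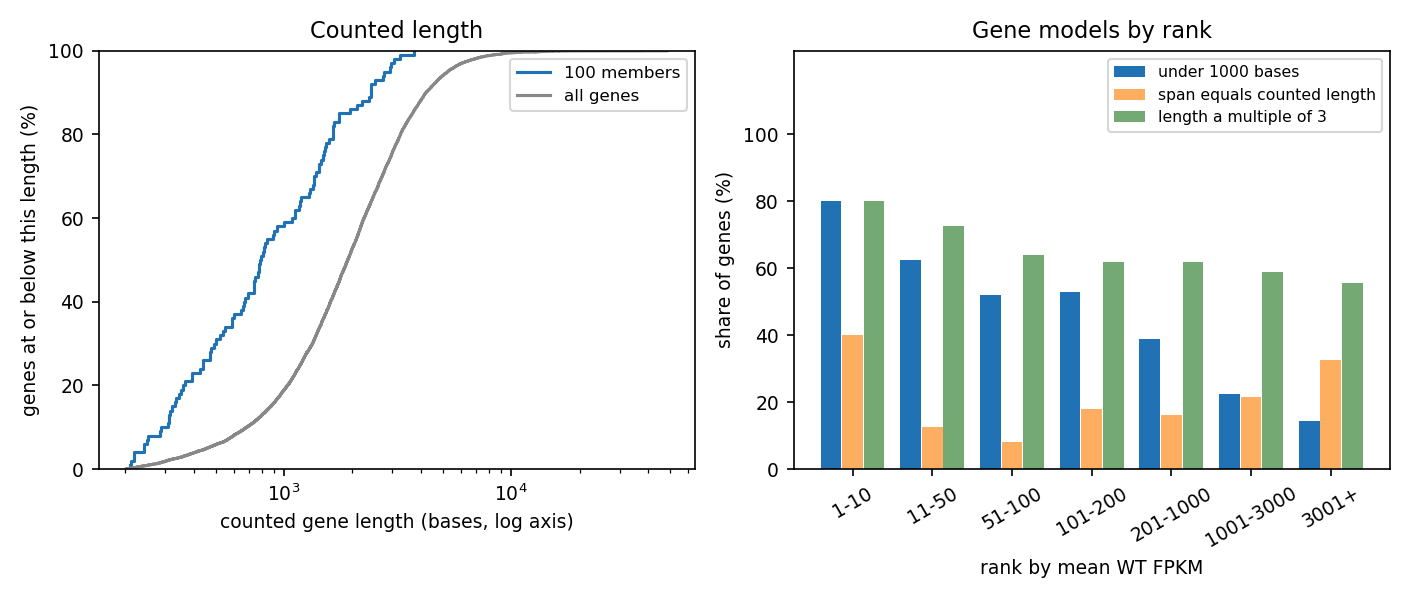
Left: share of genes, in percent, at or below each counted length (log axis, bases) for the 100 members and for all genes. Right: share of genes under 1000 bases, of genes whose span equals the counted length and of genes whose length is a multiple of 3, in bands of rank by mean WT FPKM. The members' curve lies to the left, and genes under 1000 bases make up 80.0% of the first 10 and 14.3% of the genes in the lowest band.

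The members were spread over all 30 chromosomes, with 1 to 10 on each. Chromosome 3 held the most, 10 of its 527 genes (1.90%), while chromosome 28 held the largest share, 4 of 171 genes (2.34%). Of the 100, 52 lay on the plus strand. Only 4 were among the 10 genes nearest to the first or last gene of a chromosome (4.00%, against 6.28% of all genes). The gap between a member and the gene before its start had a median of 447 bases, against 259 over all genes. In 59 of the 99 members with such a neighbour it pointed the other way (59.6%, against 61.0% of all genes). Shared bases with another gene were found for 15 members, against 13.7% of all genes, each time with a gene on the other strand. These were 15 distinct overlaps, of which 9 were under 100 bases.

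Members lay directly next to each other in 4 places, described although no pair had both members called. These are the overlapping genes on chromosome 9, a further pair on chromosome 9 that face each other 54 bases apart, a divergent pair 4 bases apart on chromosome 12 and a pair in tandem 8 bases apart on chromosome 22. The divergent pair, at ranks 10 and 27, had fitted log2 fold changes of 0.10 and 0.01. The tandem pair, at ranks 42 and 5, had -0.68 and -0.08, of which only the first passed the threshold. The facing pair, at ranks 91 and 72, had 0.28 and 0.12.

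Between the strains, 10 of the 100 members passed an adjusted p of 0.05 in limma, all 100 having passed the filter on low values. Over all 9452 genes tested the share was 28.9%. Higher values in HLM23 were called for 7 members, against 14.5% of all genes, and lower values for 3, against 14.3%. By rank, 0 of the first 10 genes passed, 5 of the 40 at ranks 11 to 50 and 5 of the 50 at ranks 51 to 100. Of the next 100 genes 19 passed, and of the 800 after those 281. At an unadjusted p under 0.05 there were 21 members, against 40.8% of all genes. The choice used the WT side of this contrast, so these shares are given as a description. The median size of change of the members was 0.26 on the log2 scale against 0.40 over all genes, and their median standard error was 0.20 against 0.21. That error was smaller for the genes next in rank, at 0.18 for the next 100 and 0.17 for the 800 after those. For the 6552 genes of lowest rank it was larger, at 0.23. The part of the members' larger error in their fewer calls, set against the genes next in rank, was not tested. A change of at least 2-fold was called in 3 members, against 12.9% of all genes.

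The number of calls depended on the test and the scaling. The authors' deposited table puts 21 members past an adjusted p of 0.05, and these include all 10 called by limma. Higher values were called for 17 and lower values for 4, against 16.0% and 15.7% of its 9552 genes, or 31.7% in all. Quasi-likelihood tests in edgeR on the recovered reads, with TMM scaling, called 13, against 28.5% of all genes. Of these members 11 were higher and 2 lower, against 14.5% and 14.0% of all genes. With equal library totals, limma called 16 members, of which 9 were higher and 7 lower, against 10.8% and 17% of all genes, or 27.8% in all. Of the members' calls 56.2% were then higher, against 70.0% as reported. That scaling moves the median of all genes to -0.11 on the log2 scale.

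The median fitted log2 fold change of the 100 was 0.18, against -0.0022 over all genes tested, and 73 were above 0, against 49.9% of all genes. The authors' scaling between libraries by itself brings the median over all genes close to 0. No overlap between the strains was seen for 28 members with higher values in HLM23, against 24.2% of all genes, and for 4 with lower values, against 22.8%. With equal library totals the median was 0.07 and 61 members were above 0. That scaling shifts each gene by nearly the same amount and moves the median of all genes to -0.11. The members' median thus lay 0.19 above that of all genes under either scaling by construction, which is no check of the difference. Without HLM23 replicate 3 the median fell to 0.05, with 59 above 0. Chosen by their level in HLM23 instead, which favours the other direction, the 100 genes had a median of 0.24, and chosen by all 6 libraries, 0.21.

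Relative to the mean of the 6 libraries, the median member stood at 0.05, -0.10 and 0.40 in HLM23 replicates 1, 2 and 3 and at -0.22, -0.07 and 0.02 in the WT replicates, on the log2 scale. HLM23 replicate 3 stood highest and WT replicate 1 lowest, while HLM23 replicate 2 lay below WT replicates 2 and 3. The same medians over all genes tested lay between 0.0062 and 0.015, close to 0 as the scaling between libraries by itself makes them. Of the 100 members, 70 had their highest value in HLM23 replicate 3, against 26.4% of all genes, and 53 had their lowest in WT replicate 1, against 22.2%. HLM23 replicate 3 is also the library with the most reads, and the part of depth or of sample handling in this pattern was not tested.

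**Figure D4:**
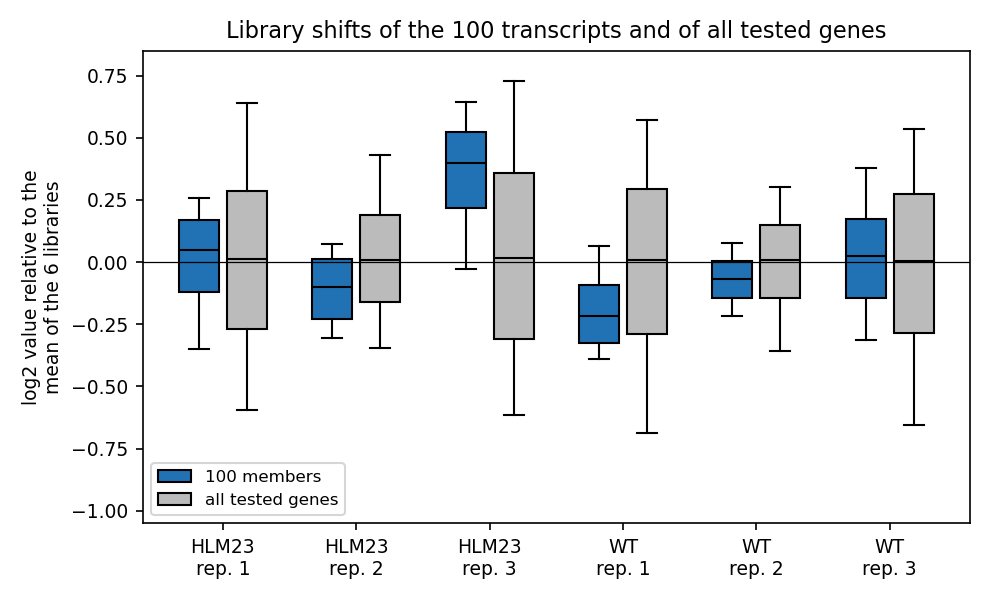
Log2 normalised value relative to the mean of the 6 libraries, for the 100 members (blue) and all tested genes (grey), by library; boxes span the quartiles with the median as a line and whiskers reach the 10th and 90th percentiles. The members' median lies at 0.40 in HLM23 replicate 3 and at -0.22 in WT replicate 1. The median of all genes lies near 0 in each library, where the scaling between libraries puts it.

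The steepest rise among the members was that of NO30G00840 on the plus strand of chromosome 30 (304904 to 307092), a gene of 1643 counted bases. Its normalised read count was 68027, 59217 and 74788 in HLM23 and 27866, 27734 and 31105 in the WT. All 3 HLM23 libraries lay far above the WT libraries, which differed little among themselves. The mean in HLM23 was 2.33 times that of the WT, with a fitted log2 fold change of 1.22 ± 0.18 (SE; limma adjusted p = 0.00082). By FPKM the gene moved from rank 85 to rank 40. NO27G00910, a gene without introns on the plus strand of chromosome 27 (308167 to 310522), had a normalised read count of 101101, 75998 and 100405 in HLM23 and 33805, 44099 and 45828 in the WT. The strains again did not overlap, at 2.24 times the WT mean and a fitted log2 fold change of 1.17 ± 0.21 (SE; limma adjusted p = 0.0020), and the gene moved from rank 87 to rank 45.

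A further 5 members rose by less than 2-fold. The gene at rank 33 on chromosome 24 (451556 to 454167) had a normalised read count of 141214, 129337 and 156230 in HLM23 and 74989, 79491 and 76140 in the WT, with tight WT values, no overlap and a fitted log2 fold change of 0.88 ± 0.20 (SE; limma adjusted p = 0.0069). With NO30G00840 and NO27G00910 it passed the threshold in all 18 alternatives run. The gene at rank 12 on chromosome 16 (776583 to 777900) is the most abundant member that was called. It had 89637, 81836 and 108077 normalised reads in HLM23 and 50657, 54453 and 61546 in the WT, without overlap (fitted at a log2 fold change of 0.74 with an SE of 0.20, limma adjusted p = 0.016), and it moved to rank 6 by FPKM. Without WT replicate 1 its limma adjusted p was 0.090, and without both replicate 2 libraries 0.065.

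The remaining 3 calls of higher values were weaker. The gene of rank 22 on chromosome 28 (76556 to 78582) had 39617, 37663 and 65908 normalised reads in HLM23 and 24668, 30117 and 28907 in the WT, so that HLM23 replicate 3 stood apart (log2 fold change 0.73, limma adjusted p = 0.029). Without WT replicate 1 or WT replicate 3 its limma adjusted p was 0.12 and 0.084. The gene of rank 70 on chromosome 7 (555568 to 556824) had 25531, 21342 and 32005 in HLM23 and 15372, 18782 and 16871 in the WT (log2 fold change 0.61, limma adjusted p = 0.027). Its limma adjusted p was 0.067, 0.12 and 0.087 without HLM23 replicate 1, WT replicate 1 and WT replicate 3. The gene of rank 35 on chromosome 26 (571822 to 574660) had 87631, 82007 and 106891 in HLM23 and 57335, 64716 and 63544 in the WT (log2 fold change 0.57, limma adjusted p = 0.047). It lost the call whichever of the 6 libraries was left out, with limma adjusted p from 0.054 without HLM23 replicate 3 to 0.18 without WT replicate 1, and with the replicate block (0.067). None of these 3 genes overlapped between the strains. The 7 members that rose took 3.27% ± 0.197 of HLM23 reads, against 1.96% ± 0.104 of WT reads (SD, n = 3), which follows from their being called but gives the size of the shift.

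Among the members that fell, NO12G02410 on the plus strand of chromosome 12 (693487 to 696392) showed the largest change of all 100. Its normalised read count was 16784, 26382 and 25327 in HLM23 and 69031, 44000 and 75655 in the WT. The lowest WT value, in replicate 2, was still well above the highest HLM23 value, though the WT libraries were widely spread. HLM23 stood at 36.3% of the WT mean, a fitted log2 fold change of -1.45 ± 0.24 (SE; limma adjusted p = 0.0016), and the gene moved from rank 55 to rank 181. The call held in all 18 alternatives, with log2 fold changes between -1.81 and -1.24.

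NO03G02740, a gene of 219 counted bases on the plus strand of chromosome 3 (779191 to 779504), had a normalised read count of 1526, 2014 and 2445 in HLM23 and 3204, 3124 and 3976 in the WT. Its short length puts it among the members at a far lower read count than the others named. It stood at 58.1% of the WT mean with no overlap (fitted at a log2 fold change of -0.80 with an SE of 0.19, limma adjusted p = 0.0083) and moved from rank 95 to rank 191. Without WT replicate 3 its limma adjusted p was 0.052. The remaining fall, at rank 42 on chromosome 22 (425001 to 425780), was at the edge of the threshold (fitted at a log2 fold change of -0.68 with an SE of 0.24, limma adjusted p = 0.0499). Normalised reads were 26741, 19070 and 12979 in HLM23 and 29175, 26885 and 34568 in the WT. The first HLM23 value almost touches the second WT value, and the HLM23 libraries differ by more than 2-fold among themselves. It passed in 6 of 18 alternatives, and not when any library other than HLM23 replicate 1 was left out (limma adjusted p 0.054 to 0.18). With the replicate block its limma adjusted p was 0.053.

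**Figure D5:**
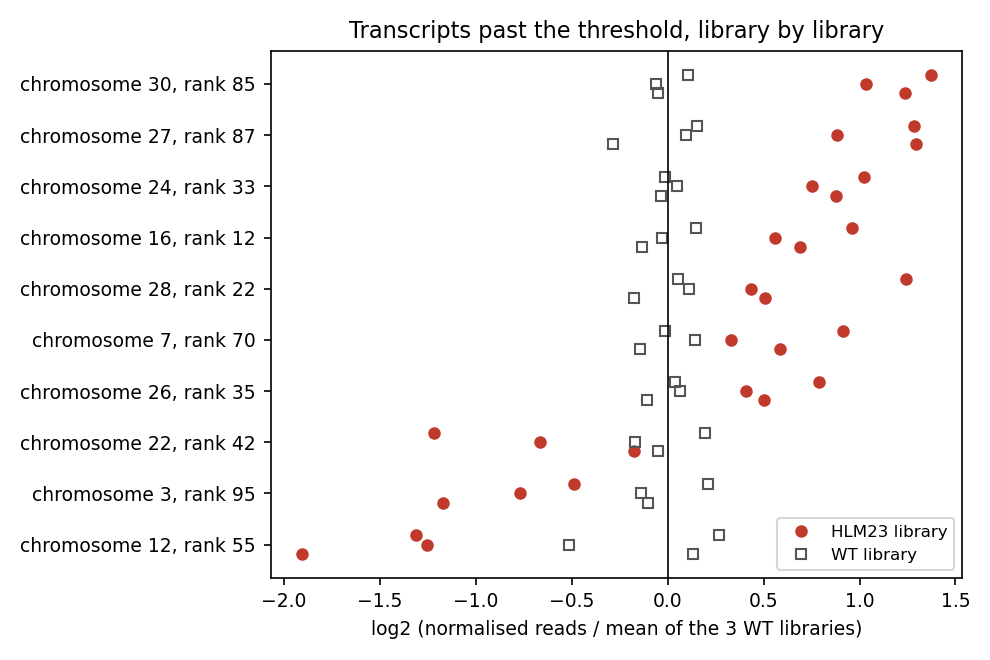
Log2 ratio of each library's normalised read count to the mean of the 3 WT libraries for the 10 members past the threshold, labelled by chromosome and rank of WT FPKM; filled circles are HLM23 libraries and open squares WT libraries. The 7 upper genes have all HLM23 circles to the right of the WT squares, and the 3 lower genes have them to the left, with a near contact at rank 42 on chromosome 22.

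The order of levels was largely shared. Of the 100 members, 91 were also among the 100 highest in HLM23 by FPKM, and 64 moved by 10 ranks or fewer. The first ranks changed places. By mean FPKM, the chromosome 9 gene of rank 2 came first in HLM23 at 12171 ± 1643. The chromosome 25 gene took rank 3 there at 9493 ± 1388 (SD, n = 3). By FPKM it lay above the chromosome 9 gene in every WT library and below it in every HLM23 library. The chromosome 9 gene overlaps another member, so its values are uncertain. By normalised reads, not divided by length, the chromosome 25 gene came first in every library of either strain. Neither gene passed the threshold between the strains. Leaving the first 100 in HLM23 by itself favours lower values there, which were called for 14.3% of all genes tested. Of the 9 members that left, 2 had passed the threshold, NO12G02410 and NO03G02740. The other 7 had fitted log2 fold changes between -0.55 and 0.21 and came from ranks 77 to 98. The largest of these shifts, picked out after its values were seen, was that of a gene on chromosome 23 (254174 to 258693), from rank 77 to rank 140. The libraries held 46718, 38328 and 33666 normalised reads in HLM23 and 44943, 71056 and 59074 in the WT, with overlap between the strains (log2 fold change -0.55, limma adjusted p = 0.075). In the authors' deposited table its adjusted p is 0.025, which makes it 1 of the 4 members called lower there.

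Members differed in how steady they were between libraries of the same strain. The spread, as the SD of log2 values within strains, had a median of 0.246, against 0.259 over all genes. This median was 0.219 for the next 100 genes by rank, 0.216 for the 800 after those and 0.287 for the 6552 of lowest rank. By this measure the members were less steady than the genes next in rank. A displacement of a whole library shared by the members, as seen in HLM23 replicate 3, enters the spread of each of them. Its part in this difference was not tested. The steadiest was a gene of rank 63 on chromosome 3 (1436194 to 1436850) at 0.0584, with 10195, 9434 and 9956 normalised reads in HLM23 and 8014, 8444 and 8693 in the WT. Next came genes on chromosome 10 (87548 to 89563) at 0.0611 and chromosome 25 (449028 to 451048) at 0.0993, with fitted log2 fold changes of 0.02 and 0.07. The least steady was a gene of rank 19 on chromosome 2 (92322 to 95961) at 0.586. It had 73001, 91226 and 197643 normalised reads in HLM23 and 176574, 124678 and 196950 in the WT, so that HLM23 replicate 3 equalled the highest WT library while the other HLM23 libraries lay below all WT libraries. It did not pass the threshold (fitted at a log2 fold change of -0.57 with an SE of 0.34, limma adjusted p = 0.23), but without HLM23 replicate 3 it did, at -1.0 (limma adjusted p = 0.014). Genes on chromosome 1 (1032397 to 1033567) and chromosome 9 (368464 to 369906) followed at 0.477 and 0.452, each with its highest value in HLM23 replicate 3.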

How the data were processed

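The deposited table holds 1 row per gene. Per the submitters' processing notes, fastp, HISAT2, featureCounts and DESeq2 were used. The sources used here name no versions, settings, strand option, build or annotation. For each of the 6 samples 1 column holds signal values scaled by the authors between libraries: 100% of the values are whole multiples, within 0.001 of a read, of 1 step per library, the pattern left by dividing reads by a size factor. They are called normalised read counts. The authors' FPKM, per the file headers, gave levels between genes and chose the members; for 3 of the 100 members it used another length than the one listed. The log2 fold changes and the p-values deposited by the authors served as an alternative.

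Titles gave the groups. The 9452 genes whose 6 values averaged 1 or more entered a limma 3.58.1 fit (R 4.3.3) of log2(value + 1), with a mean-variance trend, strain as the only term and Benjamini-Hochberg adjustment over all genes at 0.05. Fold changes are on this scale. On data simulated for this comparison (9428 genes), the fit called 78% of 100 genes changed 2-fold, 99% of 100 changed 4-fold and 0.0867% of the unchanged genes. The changed genes were drawn from better-expressed genes, and they were far fewer than the genes called here. Noise was drawn separately for each gene, without a library shift shared by the members, so these rates need not hold for them. The recovered reads were tested with edgeR 4.0.16 and DESeq2 1.42.0 as alternatives. The members and lists were chosen with earlier results of these data known. The genes described are the first 10, the called members, the last 2 inside and first 2 outside the choice and the 3 steadiest and 3 least steady; IDs are printed for the 2 largest changes each way, and adjacent members and a few others were added after their values were seen. Gene lists by function could not be formed. Intron length is the span minus the counted length. The fit without both replicate 2 libraries was chosen after seeing the data.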

Additional observations from a re-analysis of the deposited data

How the results depend on the processing

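As reported, 10 members were called, 7 higher and 3 lower. The DESeq2 fit and the authors' deposited table each gave 21 calls, against 32.1% and 31.7% of all genes called. In each, 17 members were higher, against 16.2% and 16.0% of all genes. With edgeR, under either scaling, and with limma voom, 11 were higher, against 14.5% of all genes in each fit. Equal library totals gave 16 calls, 7 of them lower, against 27.8% of all genes called and 17.0% called lower. An adjusted p under 0.01 gave 5, 3 of them higher, against 13.8% of all genes called and 7.49% called higher. Leaving out 1 library gave 5 to 13 calls, 3 to 7 higher and 1 to 7 lower. There were 5 without WT replicate 1 or WT replicate 3, where the share over all genes was 16.2% and 16.3% in place of 28.9%. Without HLM23 replicate 3, 7 were lower, against 14.2% of all genes. Without both replicate 2 libraries there were 7 calls, against 23.8% of all genes. The median log2 fold change ran from 0.05 to 0.29 over the libraries left out. Other choices of members gave other counts, against 28.9% of all genes called, 14.5% higher and 14.3% lower. The first 50 held 5 calls (4 higher, 1 lower) and the first 200 held 29 (16 higher, 13 lower), but these sets also differ in size. The 100 highest in HLM23 held 11 higher and 1 lower, and the 100 with most WT reads 9 higher and 5 lower. The read shares in HLM23 and the WT were 23.5% and 22.4% for the first 50, 39.6% and 37.6% for the first 200, 35.3% and 32.8% for the genes with most WT reads, and 41.0% and 39.2% of summed FPKM. They ran from 30.1% to 32.7% in HLM23 and from 28.9% to 30.8% in the WT with 1 library of that strain left out. The cause of these shifts was not tested, except that fewer samples or genes enter by construction. With the replicate block 9 members were called, against 27.9% of all genes, and 8 of these members were among those reported. Replicate numbers did not visibly pair libraries, since same-numbered libraries correlated at -0.07, -0.11 and 0.15 after removing strain means. Of the 10 called genes, 4 passed in all 18 alternatives, and no called gene changed direction. Over all genes, edgeR with TMM called 2696 and DESeq2 3035, against 2730. The lowest normalised read count among the members described was 1526, so counting error is small beside the spread between libraries.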

Other observations

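In place of the 9 members that left, 9 other genes were among the 100 highest in HLM23, and 4 of these were called higher. Over all genes tested 14.5% were called higher. Entry by HLM23 level by itself favours higher values in HLM23, so these calls are a description. The genes were described after their values were seen. The largest shift was that of a gene on chromosome 22 (531060 to 543526), from rank 314 to rank 90 by FPKM. It had 119763, 102977 and 132403 normalised reads in HLM23 and 23630, 31196 and 32509 in the WT (log2 fold change 2.03, limma adjusted p = 0.00026). A gene on chromosome 16 (745122 to 748755) moved from rank 121 to rank 59, with 97529, 85275 and 77580 normalised reads in HLM23 and 39307, 38405 and 39637 in the WT (log2 fold change 1.14, limma adjusted p = 0.0012). A gene on chromosome 10 (522109 to 524508) moved from rank 146 to rank 72 (log2 fold change 1.04, limma adjusted p = 0.0026), and another on chromosome 16 (622780 to 623911) from rank 123 to rank 84 (log2 fold change 0.65, limma adjusted p = 0.014). The other 5 stood at ranks 107 to 139 in the WT and did not pass the threshold.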
